A study of Bos taurus with 12 samples.

Results

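MicroRNAs (miRNAs) are RNAs of about the length of a primer that guide Argonaute proteins to messenger RNAs, which are then less translated or less stable. The miRNAs described here are those known from muscle. They were chosen by name from the miRNA table of a bovine series, as every name with the number miR-1, miR-133a, miR-133b, miR-133c, miR-206, miR-208a, miR-208b, miR-499 or miR-486, of either arm of the hairpin and with any species prefix. The rule found 15 of the 1330 names in the table, 8 with the bovine prefix (bta) and 7 with the prefix of human (hsa), mouse (mmu), goat (chi) or opossum (mdo), whose database entry the read matched. No name with miR-133c was among them. The names mmu-miR-486b-5p and mmu-miR-486a-3p, with a letter after the number, fell outside the rule.

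The cells were preadipocytes, the precursors of fat cells, taken from a back muscle (longissimus dorsi) of newborn Qinchuan cattle, and the labels name them intramuscular adipocytes from intramuscular fat. Samples came from 0 d and from days 3, 6 and 9 of differentiation, and by the paper's methods induction began once the cells were nearly confluent. Induction used dexamethasone, IBMX and insulin, and medium with insulin alone followed. Each day has 3 small-RNA libraries and 3 mRNA libraries, named biological replicates in the paper's methods. The paper also says that the time points came from a single batch of cells. Neither it nor the labels say whether the replicates were separate cultures or animals, so that every p-value here measures only the spread between these libraries.

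MiR-1, miR-133, miR-206, miR-208 and miR-499 are known as myomiRs because skeletal or heart muscle makes far more of them than other tissues do, largely under the control of MyoD, myogenin, MEF2 and SRF. MiR-1 and miR-206 promote the differentiation of myoblasts, miR-133 is linked to their proliferation and restrains brown-fat fate through PRDM16, and miR-208 and miR-499 lie within myosin heavy-chain genes and take part in the choice of fibre type. MiR-486 lies within the ankyrin gene ANK1, is made in muscle and in red-cell precursors, and acts on FOXO1 in the insulin signalling path.

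The mature sequences show which of these miRNAs share targets and which can be confused in sequencing. They are given as the deposited miRNA table has them, 5′ to 3′, with the seed (bases 2 to 8, which pair with targets) in capitals. The first pair shares 1 seed, the second pair shares another, and the last pair has seeds that differ in the final base of the seed alone.
bta-miR-1: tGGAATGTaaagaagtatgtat
bta-miR-206: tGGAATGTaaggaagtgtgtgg
bta-miR-133a_R+1: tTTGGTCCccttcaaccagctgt
bta-miR-133b_R+1: tTTGGTCCccttcaaccagctat
bta-miR-486: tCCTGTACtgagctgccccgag
bta-miR-208b: aTAAGACGaacaaaaggtttgt
bta-miR-499: tTAAGACTtgcagtgatgttt

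Counted from 1 at the 5′ end, miR-1 and miR-206 differ by 4 substitutions (A11G, A17G, A21G and T22G, with the base of miR-1 first), all outside the seed. MiR-133a and miR-133b differ by 1 substitution near the 3′ end (G22A). The suffix R+1 means that the read extends 1 base past the database entry. In miR-133b that added base is not the one in the bovine hairpin (C23T), whereas the read of miR-133a matches its hairpin throughout. No name outside the members had the seed of miR-1 and miR-206 or that of miR-133a and miR-133b. The seed of miR-486 was found in 3 names, bta-miR-486, hsa-miR-486-5p_R+2 and mmu-miR-486b-5p_R+2. The human-named form holds the whole sequence of bta-miR-486 without a substitution, is 24 bases long against 22, and its last base is not that of the hairpin (C24T).

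By the positions in the miRNA table, and with genes named from the RefSeq annotation of the bovine assembly ARS-UCD2.0, the loci form 4 pairs. The hairpins of miR-206 and miR-133b lie 4.006 kb apart on chromosome 23, within the uncharacterized gene LOC132343629. MiR-1 and miR-133a are paired at 2 places, 3.226 kb apart where MIB1 and LOC113633884 overlap on chromosome 24 and 10.145 kb apart within LOC132346930 on chromosome 13. The hairpin of miR-208b lies in MYH7 and that of miR-208a in MYH6, 28.803 kb apart on chromosome 10. MiR-499 lies in MYH7B on chromosome 13, and miR-486 in ANK1 on chromosome 27. These genes were assigned by overlap of positions, and strands were not compared.

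This arrangement matters for the counts, since reads that match several loci were split between them. Of all raw values, 10.4% were not whole numbers. For 94 of the 113 names with more than 1 locus, the value times the number of loci was whole in every library, to within 0.05. MiR-1 has 2 loci, and its doubled value was whole in 12 of 12 libraries. The raw value of miR-133a was whole in 2 libraries and that of miR-133b in 4, but 2 times miR-133a plus miR-133b was whole in all 12. Part of the reads was thus shared by the pair of miR-133a loci and the miR-133b locus, and a value of miR-133a stands for 1 of its loci. MiR-206 was whole in 12 libraries.

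The depth was lowest at 0 d. The raw values of all miRNAs summed to 1.70, 1.97 and 1.44 M at 0 d, 2.23, 3.02 and 2.81 M at 3 d, 3.14, 4.67 and 4.12 M at 6 d, then 3.27, 2.96 and 3.37 M at 9 d. A count of 3 reads, the upper bound taken for an observed 0, is 2.09 CPM (counts scaled to library depth) in the shallowest library and 0.642 in the deepest, and it covers counting error only. Levels below are the authors' normalized values, each the raw value times 1 factor for its library. Their totals were not equal. They were 2.54, 2.46 and 3.16 M at 0 d and 2.52, 2.47 and 2.60 M at 3 d. At 6 d they were 2.60, 2.55 and 2.55 M, and at 9 d 2.95, 3.27 and 2.98 M. Normalized values and shares of the total can thus order libraries differently.

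Libraries 0 d replicate 3 and 6 d replicate 3 stood apart from the others of their day. Across the 649 miRNA names compared, on a log2 scale, 0 d replicate 3 correlated with the other 0 d libraries at a Pearson r of 0.891 and 0.896, against 0.965 between those. For 6 d replicate 3 the r was 0.956 and 0.967, against 0.986. By this measure 9 d replicate 2 was also the least like its day (0.963 and 0.964, against 0.980), but it held 9 names found in no other library and none of the markers below. Library 6 d replicate 3 held 51 names found in no other library, 18 of them with the mouse prefix. The other 11 libraries held 5 to 32 such names, at most 1 of them with the mouse prefix.

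Markers of blood and vessels, listed for this purpose, were found in these same libraries. The endothelial miR-126-3p had a normalized value of 116 in 0 d replicate 3 and 206.3 in 6 d replicate 3, and was at 0 in the other 10. The erythroid miR-451 was at 28.5 and 26.02 in the same 2 libraries, and miR-223 of blood and immune cells at 15.4 and 8.05. MiR-144 and miR-142 have no row in the table. In the mRNA libraries with the same numbers, the erythroid list (10 of 11 genes matched) summed to 0.32, 0.25 and 0.88 FPKM (fragments scaled to transcript length and depth) at 0 d, 0.41, 2.24 and 2.74 at 3 d, 2.46, 2.42 and 2.05 at 6 d, then 0.20, 0.29 and 0.12 at 9 d. Its most abundant gene was HBA1, and HBB and SLC4A1 were among those listed at 0 throughout. The endothelial list (6 of 6 genes matched) had VWF as the most abundant and summed to 3.23, 3.71 and 3.03 FPKM at 0 d, 3.71, 3.58 and 3.47 at 3 d, 2.84, 2.52 and 2.81 at 6 d, then 3.17, 2.57 and 3.25 at 9 d. The blood and immune list (7 of 7 matched) had CD14 as the most abundant and PTPRC listed at 0, and summed to 2.07, 1.16 and 1.10 FPKM at 0 d, 5.05, 5.86 and 5.72 at 3 d, 2.35, 3.34 and 5.50 at 6 d, then 4.46, 3.97 and 3.32 at 9 d. In these mRNA sums 0 d replicate 3 was the highest of its day for the erythroid list alone, and 6 d replicate 3 for the blood and immune list alone. What set the 2 small-RNA libraries apart was not tested, and calls that changed on leaving them out are given with and without them. Ranks and correlations are given with all libraries only.

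**Figure D1:**
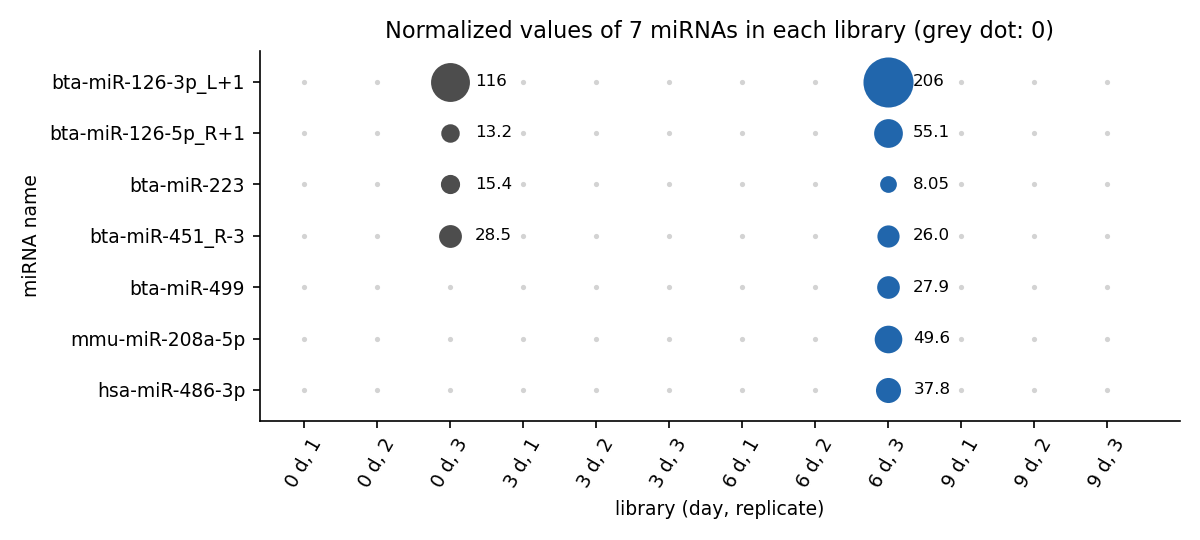
Normalized values of 7 miRNA names in each of the 12 libraries, with the number and the area of the circle giving the value and a grey dot marking 0. Names of blood and vessel cells were found in 0 d and 6 d replicate 3, and miR-499, miR-208a-5p and miR-486-3p in 6 d replicate 3 alone.

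Together the 15 members made up 4.39%, 3.66% and 5.74% of all normalized signal at 0 d, 3.41%, 3.49% and 3.77% at 3 d, 1.88%, 1.83% and 2.08% at 6 d, then 1.43%, 1.53% and 1.89% at 9 d. Every library of 6 d and 9 d was below every library of 0 d and 3 d. Since these are bulk samples, fewer cells of a type and less RNA per cell cannot be told apart. MiR-206 alone contributed 1.63% to 3.78% at 0 d and 0.782% to 1.21% at 9 d.

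Of the 15 members, 9 had a mean normalized value of at least 10 and are described one by one. Ranked by mean over the 12 libraries among the 1330 names, miR-206 was 16th (43927), miR-133b 38th (15678), miR-133a 46th (11953), miR-486 65th (6673) and miR-1 174th (872). The values of miR-133a and miR-1 stand for 1 of their 2 loci, so that their whole signal is larger, with 2 times miR-133a averaging 23907 and 2 times miR-1 averaging 1743. The order of miR-133a and miR-133b thus depends on the splitting of reads. That order also turned with the day. The mean of miR-133b was above that of 1 locus of miR-133a at 0 d (25873.5 against 12130.4) and below it at 9 d (7815 against 9621). At 6 d it was below with all libraries (10524 against 11717) and above without replicate 3 (12341 against 10934). At 0 d the libraries of miR-133a and miR-486 overlapped (12130.4 ± 1788 and 15587 ± 5274, SD, n = 3), with miR-133a given for 1 locus.

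A miRNA was called changed at an absolute log2 fold change over 1 with an adjusted p under 0.05, from a quasi-likelihood test of edgeR on the rounded raw values of the 1081 names with at least 10 reads over the 12 libraries. All 15 members passed that filter. The p-values are adjusted by the Benjamini–Hochberg method over all names within a comparison, and the comparisons with 0 d share its libraries.

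MiR-206 is the member most restricted to skeletal muscle. Its normalized values were 58238, 40087 and 119332 at 0 d, 46239, 46011 and 59065 at 3 d, 23469, 20722 and 26277 at 6 d, then 23094, 28538 and 36047 at 9 d. The 6 d and 9 d libraries all lay below those of 0 d and 3 d, and the 0 d group overlapped with 3 d and owed its mean to replicate 3. The day means were 72552 ± 41516, 50438 ± 7472, 23489 ± 2778 and 29226 ± 6504, and without replicate 3 the 0 d mean was 49162. In edgeR it fell by 1.42 on the log2 scale at 6 d against 0 d (standard error 0.29, adjusted p 0.00384) and by 1.08 at 9 d (standard error 0.29, adjusted p 0.0134), lower in 3 of 3 libraries each time. At 3 d against 0 d its log2 fold change was -0.35 (adjusted p 0.481), not a call.

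The calls of miR-206 depended on single libraries and on the libraries fitted. With only the 6 libraries compared in the fit, the calls at 6 d (adjusted p 0.0610) and 9 d (adjusted p 0.0718) against 0 d were lost. Without 0 d replicate 3 its log2 fold change was -0.93 at 6 d (adjusted p 0.00471) and -0.63 at 9 d (adjusted p 0.0321), both short of the fold threshold. With 0 d replicate 3 and 6 d replicate 3 left out together, it was -1.02 at 6 d (adjusted p 0.00448), a call, and -0.62 at 9 d (adjusted p 0.0300). At 9 d the call was also lost without 9 d replicate 1 (-0.99, adjusted p 0.0656) or replicate 2 (-1.08, adjusted p 0.0517). At 6 d against 3 d miR-206 was called at -1.07 (adjusted p 0.0428). That last call was lost on leaving out any 1 library other than 0 d replicates 2 and 3, with log2 fold changes of -1.14 to -0.94 and adjusted p of 0.0710 to 0.187.

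MiR-1 shares its seed with miR-206 and is the chief miRNA of adult heart and skeletal muscle. Its normalized values were 1089, 928 and 1592 at 0 d, 1224, 1226 and 1053 at 3 d, 459.5, 346 and 1302 at 6 d, then 421, 425 and 393 at 9 d. The 9 d libraries lay below all those of 0 d and 3 d, as did replicates 1 and 2 of 6 d, whereas 6 d replicate 3 lay among the earlier days. The day means were 1203 ± 347, 1168 ± 99.6, 703 ± 522 and 413 ± 17.2, with 403 at 6 d without replicate 3. At 9 d it was 2.52-fold lower than at 0 d (log2 fold change -1.33, standard error 0.37, adjusted p 0.0175 in edgeR), in 3 of 3 libraries. Leaving out 9 d replicate 1, 2 or 3 kept the size (-1.41, -1.36 and -1.35) but moved the adjusted p to 0.0504, 0.0540 and 0.0670. Without 0 d replicate 3 the log2 fold change at 9 d was -1.17 (adjusted p 0.0398 in edgeR), still a call.

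The 6 d result for miR-1 turned on 1 library. With all libraries the log2 fold change at 6 d against 0 d was -0.60 (adjusted p 0.299), not a call. Without 6 d replicate 3 it was -1.37 (adjusted p 0.00138), a call, and against 3 d it was -1.48 (adjusted p 0.00188) in place of -0.71 (adjusted p 0.359).

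MiR-133b comes from the same locus as miR-206. Its normalized values were 26752, 22543 and 28326 at 0 d, 18763, 18679 and 18059 at 3 d, 12043, 12639 and 6889.7 at 6 d, then 7025, 8437 and 7984 at 9 d. The days followed each other downwards with no overlap, except that 6 d replicate 3 was lower than all 3 libraries of 9 d. As a share of all normalized signal, 6 d replicate 3 (0.270%) was just above those of 9 d (0.238%, 0.258% and 0.268%). By share 0 d replicate 3 was the lowest of its day (0.897% against 1.05% and 0.918%), though the highest in normalized value. The day means were 25873.5 ± 2990.1, 18500.3 ± 385, 10524 ± 3161 and 7815 ± 721, with 12341 at 6 d without replicate 3. In edgeR it fell by 1.12 on the log2 scale at 6 d (standard error 0.21, adjusted p 0.00195) and by 1.53 at 9 d (standard error 0.21, adjusted p 0.000126) against 0 d, each in 3 of 3 libraries. Without 6 d replicate 3 the change at 6 d was -0.88 (adjusted p 0.00226), under the fold threshold, and with only the 6 libraries compared its adjusted p was 0.0527. The call at 9 d was made under all 23 alternatives, at log2 fold changes of -1.91 to -1.51. None of these alternatives undoes the splitting of reads with the miR-133a loci, so its part in the call was not tested.

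MiR-133a, from the loci of miR-1, was not called in any of the 5 comparisons. Its normalized values were 13519, 12759 and 10113 at 0 d, 14309, 14998.5 and 13729.6 at 3 d, 10840.2, 11027.5 and 13283 at 6 d, then 8848, 10345 and 9669 at 9 d. All 3 d libraries lay above those of 0 d, 6 d and 9 d, and the 0 d group overlapped with 6 d and with 9 d. The gap between 3 d and 0 d depends on the scaling. As a share of all normalized signal, 3 d replicate 3 (0.529%) lay below 0 d replicate 1 (0.532%). The log2 fold changes against 0 d were 0.37 (adjusted p 0.236), 0.11 (adjusted p 0.732) and -0.16 (adjusted p 0.580 in edgeR) at 3 d, 6 d and 9 d. The sign at 6 d depends on the scaling and on the library, as it was negative without 0 d replicate 3 (-0.03) and without both that and 6 d replicate 3 (-0.14).

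MiR-486, which acts on FOXO1, had the largest fold changes against 0 d among the 5 abundant members. Its normalized values were 11938, 13189 and 21634 at 0 d, 5389.5, 5367 and 5996 at 3 d, 2081, 1882 and 5137 at 6 d, then 2908, 2351 and 2208 at 9 d. All 0 d libraries lay above all later ones and all 3 d libraries above those of 6 d and 9 d, with 6 d replicate 3 close to the 3 d group. The day means were 15587 ± 5274, 5584 ± 357, 3034 ± 1825 and 2489 ± 369.8, with 12564 at 0 d and 1982 at 6 d without replicate 3 of that day. It was 2.50-fold lower at 3 d than at 0 d (log2 fold change -1.32, standard error 0.32, adjusted p 0.0171), 4.54-fold lower at 6 d (-2.18, standard error 0.33, adjusted p 0.000364) and 5.38-fold lower at 9 d (-2.43, standard error 0.33, adjusted p 0.000122), in 3 of 3 libraries each time. The calls at 6 d and 9 d were made under all 23 alternatives. Without 0 d replicate 3 the log2 fold change in edgeR was -1.08 at 3 d (adjusted p 0.0409), -1.92 at 6 d (adjusted p 0.000655) and -2.22 at 9 d (adjusted p 0.000149), all calls. Without 6 d replicate 3 the change at 6 d was -2.77 (adjusted p 8.27e-06), and 9 d against 6 d was then 0.34 (adjusted p 0.590) in place of -0.25 (adjusted p 0.873). The call at 3 d was lost on leaving out 3 d replicate 1, 2 or 3, at log2 fold changes of -1.30, -1.29 and -1.38 and adjusted p of 0.0756, 0.0876 and 0.0531. Between 3 d and 6 d its log2 fold change was -0.86 (adjusted p 0.176), and without 6 d replicate 3 it was -1.44 (adjusted p 0.00310), a call.

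The other form of miR-486, hsa-miR-486-5p_R+2, carries the same seed at a far lower level. Its normalized values were 62.7, 107 and 52.7 at 0 d, 30.5, 24.6 and 21.3 at 3 d, 5.79, 10.9 and 22.9 at 6 d, then 17.2, 0 and 0 at 9 d. All 0 d libraries lay above all later ones. It was called at 9 d against 0 d in edgeR, at a log2 fold change of -3.44 (standard error 1.00, adjusted p 0.0220), a size that leans on 2 libraries at 0. That call was lost without 0 d replicate 2 (adjusted p 0.0630) and without 9 d replicate 2 (0.0542) or 3 (0.0670), and with only the 6 libraries compared (0.0821). At 6 d against 0 d it was -2.34 (adjusted p 0.101), called without 9 d replicate 1 (-2.32, adjusted p 0.0146), with no filter (adjusted p 0.0276) and with 0 d and 6 d replicate 3 both left out (-3.18, adjusted p 0.0372). Without 6 d replicate 3 alone it was -2.96 (adjusted p 0.0967), not a call. With 9 d replicate 1 left out 9 d is at 0 and was called against 6 d (adjusted p 0.0455). The mouse-named form outside the rule, mmu-miR-486b-5p_R+2, had day means of 378, 229, 116 and 108, and mmu-miR-486a-3p_R+2 had 36 reads in 6 d replicate 3 and none elsewhere.

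**Figure D2:**
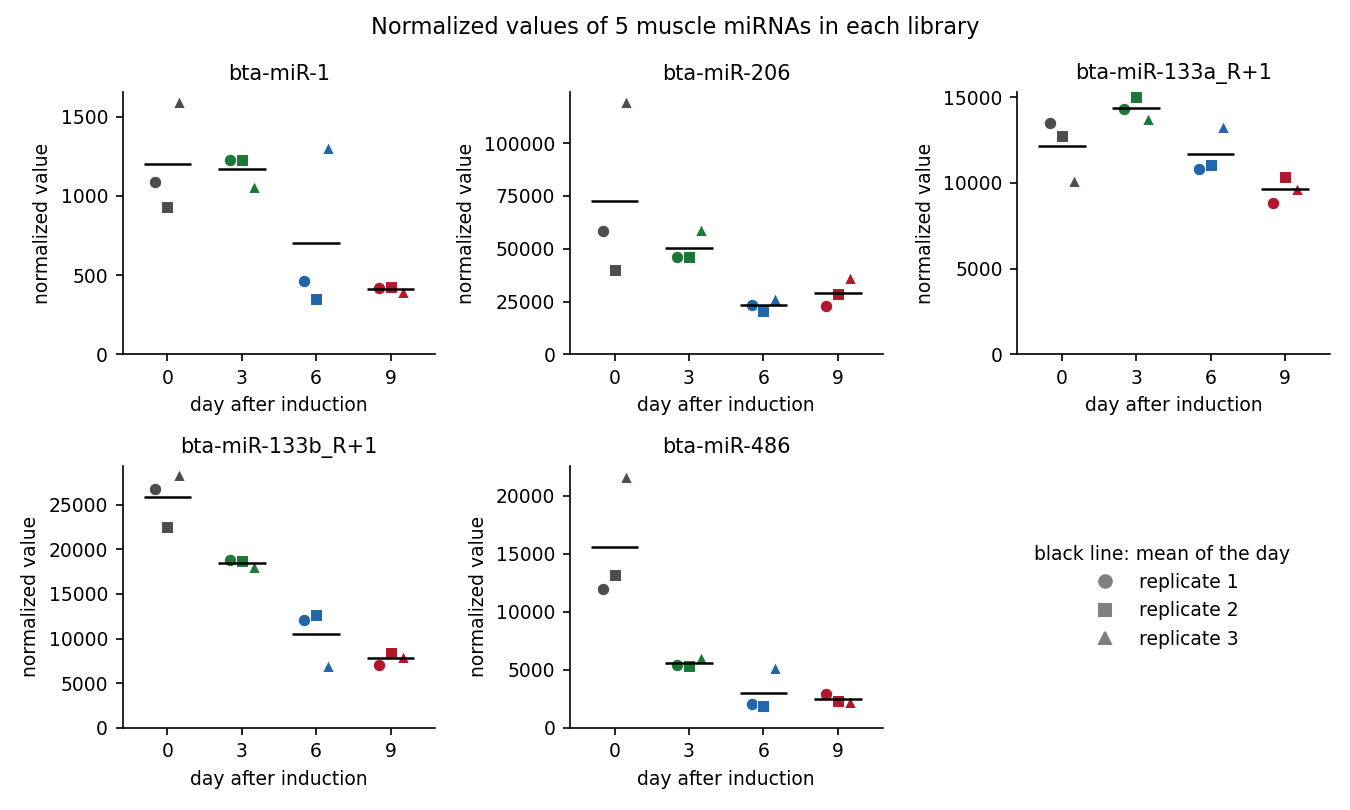
Normalized value of the 5 abundant muscle miRNAs (vertical axes, from 0) by day after induction, with a point for each library, its shape giving the replicate, and a black line at the day's mean. All libraries of 0 d lay above all later ones for miR-486 and miR-133b, 0 d replicate 3 stood away from the rest of its day in miR-206, miR-1 and miR-486, and 6 d replicate 3 in miR-1, miR-133b and miR-486. In miR-133a 0 d replicate 3 lay below, and 6 d replicate 3 above, the others of its day.

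The 5p arms come from the opposite side of the hairpins. The human-named and goat-named miR-133a-5p have the same sequence and the same value in all 12 libraries, and so are not independent. Each had 47.0, 48.0 and 57.1 at 0 d, 37.9, 35.65 and 45.3 at 3 d, 37.2, 24.8 and 54.5 at 6 d, then 31.2, 28.7 and 46.9 at 9 d. The 3 d and 9 d libraries all lay below those of 0 d, by as little as 46.9 against 47.0, and 6 d overlapped with every other day, with log2 fold changes against 0 d of -0.20, -0.21 and -0.31 (adjusted p 0.864, 0.744 and 0.612). With 2 times the 3p value divided by the sum of both 5p rows, miR-133a had 177 to 445 times the signal on its 3p arm that it had on its 5p arm. For miR-133b the 5p arm (mdo-miR-133b-5p) had 26.85, 18.7 and 41.7 at 0 d and 0 to 8.84 in the 9 later libraries, 4 of which were at 0. Its libraries of 0 d lay above all later ones, with log2 fold changes of -2.62, -2.15 and -2.99 (adjusted p 0.309, 0.323 and 0.166) that were not calls in edgeR with all libraries. The change at 9 d was called by limma on normalized values (-3.74, adjusted p 0.0315), and in edgeR without 9 d replicate 3, where the 9 d group is at 0 (adjusted p 0.0371).

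The other 6 members each had at most 80 reads summed over the 12 libraries. The cardiac and slow-fibre miR-208b had 5 and 9 reads in 0 d replicates 1 and 2 and none elsewhere. MiR-499, miR-208a-5p and hsa-miR-486-3p were found in 6 d replicate 3 alone, with 45, 80 and 61 reads. The star arm bta-mir-486-p3 had 11 and 5 reads in 0 d replicates 2 and 3 and 5 in 3 d replicate 2. The mouse-named miR-206-5p had at most 13 reads in any library and was above 0 in 6. None of these 6 was called in any comparison in edgeR with all libraries, and with 0 d and 6 d replicate 3 both left out miR-206-5p was called lower at 9 d against 0 d. Where a day was at 0 in all libraries the fitted fold changes depend on the prior count and are not given.

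At 3 d against 0 d, 1 of the 15 members was called lower and 0 higher, against 2.5% and 3.89% of the 1081 names tested. At 6 d against 0 d, 3 were called lower and 0 higher, against 4.16% and 7.12%. At 9 d against 0 d, 5 were called lower and 0 higher, against 7.96% and 10.4%. These 5 include both bta-miR-486 and its longer form hsa-miR-486-5p_R+2, and the 15 include both identical miR-133a-5p rows. The members counted are thus not all distinct miRNAs. At 6 d against 3 d, 1 was called lower and 0 higher, against 1.2% and 2.78%. At 9 d against 6 d, 0 were called either way, against 0.648% lower and 0.648% higher. By DESeq2 the members called numbered 1, 3, 5, 1 and 0, with 0 higher in each comparison. At an unadjusted p under 0.05 in edgeR, members higher numbered 0, 0, 0, 1 and 0. In either direction 1, 5, 6, 4 and 1 members passed, against 233, 302, 380, 183 and 125 of the 1081 names. In each comparison where a member was called, its log2 fold change was negative under all alternatives fitted, scalings included. The median log2 fold change of all names tested was 0.03, 0.25 and 0.00 at 3 d, 6 d and 9 d against 0 d. Other scalings moved it by -0.15 (DESeq2) and -0.16 (the authors' factors) at 6 d and by -0.20 (no TMM factors) at 9 d against 0 d, and by -0.27 (no TMM factors) at 9 d against 6 d.

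**Figure D3:**
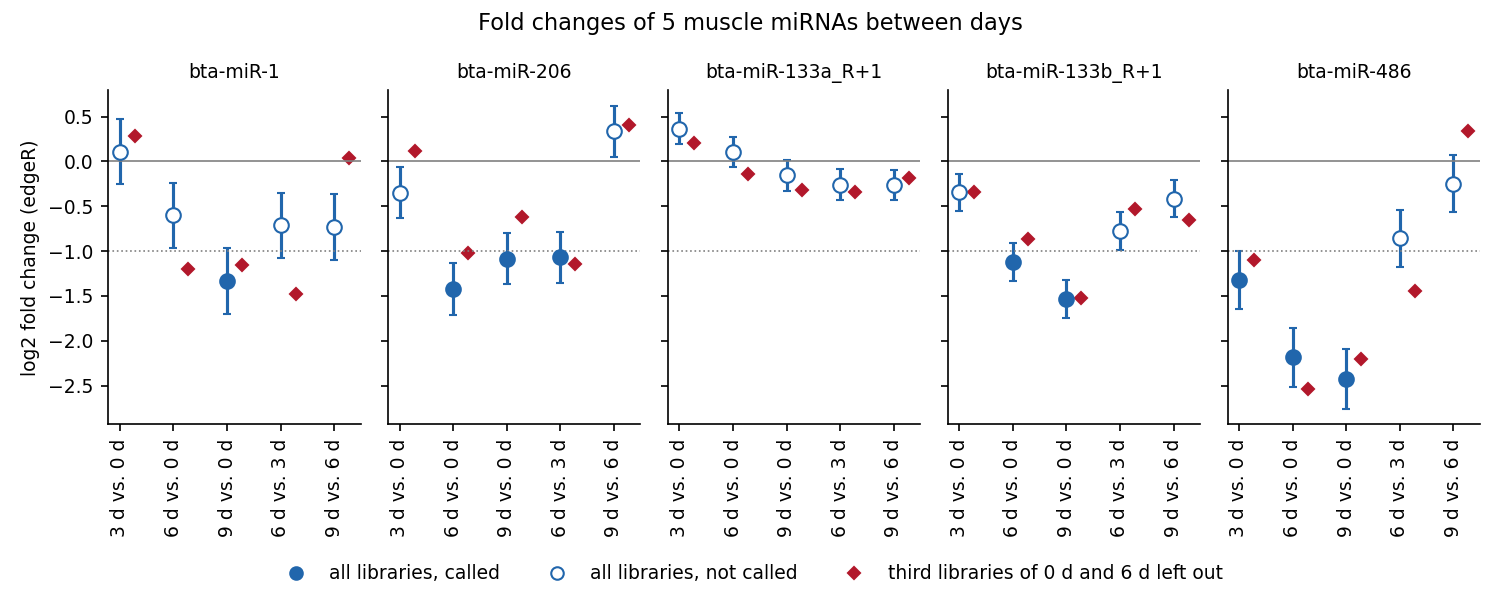
Log2 fold change of the 5 abundant muscle miRNAs between days (vertical axis) in edgeR with all libraries, as blue circles with standard errors, filled where called, and with the third libraries of 0 d and 6 d left out, as red diamonds. The dotted line marks a log2 fold change of -1, and the diamonds of miR-1 at 6 d lie lower, those of miR-206 against 0 d higher, than the circles.

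Ratios within a library do not depend on its scaling. The normalized value of miR-133b divided by that of 1 locus of miR-133a was 1.98, 1.77 and 2.80 at 0 d, 1.31, 1.25 and 1.32 at 3 d, 1.11, 1.15 and 0.519 at 6 d, then 0.794, 0.815 and 0.826 at 9 d. Library 6 d replicate 3 had the lowest value of all, and without it the 4 days did not overlap. The sum that undoes the splitting of reads, 2 times miR-133a plus miR-133b, was 53789, 48061 and 48553 at 0 d, 47382, 48676 and 45518 at 3 d, 33724, 34694 and 33455 at 6 d, then 24720.5, 29127 and 27321 at 9 d. In that sum 6 d replicate 3 lay with the other 6 d libraries. Its miR-133a was thus higher and its miR-133b lower than in those, at a like total. No test was made of these ratios.

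Ratios also varied between members of 1 locus. Those with miR-133b or miR-133a depend on the splitting of reads between these loci as well. MiR-206 was 1.64 to 4.51 times miR-133b, with the highest values in 9 d replicate 3 (4.51), 0 d replicate 3 (4.21) and 6 d replicate 3 (3.81). At 3 d replicate 3 was also the highest of its day (3.27 against 2.46 and 2.46). Replicate 3 was likewise the highest of each day for miR-206 itself and for miR-133a-5p. MiR-1 was 3.14% to 15.7% of miR-133a, highest in 0 d replicate 3 (15.7%) and 6 d replicate 3 (9.80%). MiR-206 was 37.5 to 91.7 times the value of 1 locus of its seed partner miR-1 in 11 libraries and 20.2 times in 6 d replicate 3, and over both miR-1 loci these ratios are smaller by a factor of 2.

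**Figure D4:**
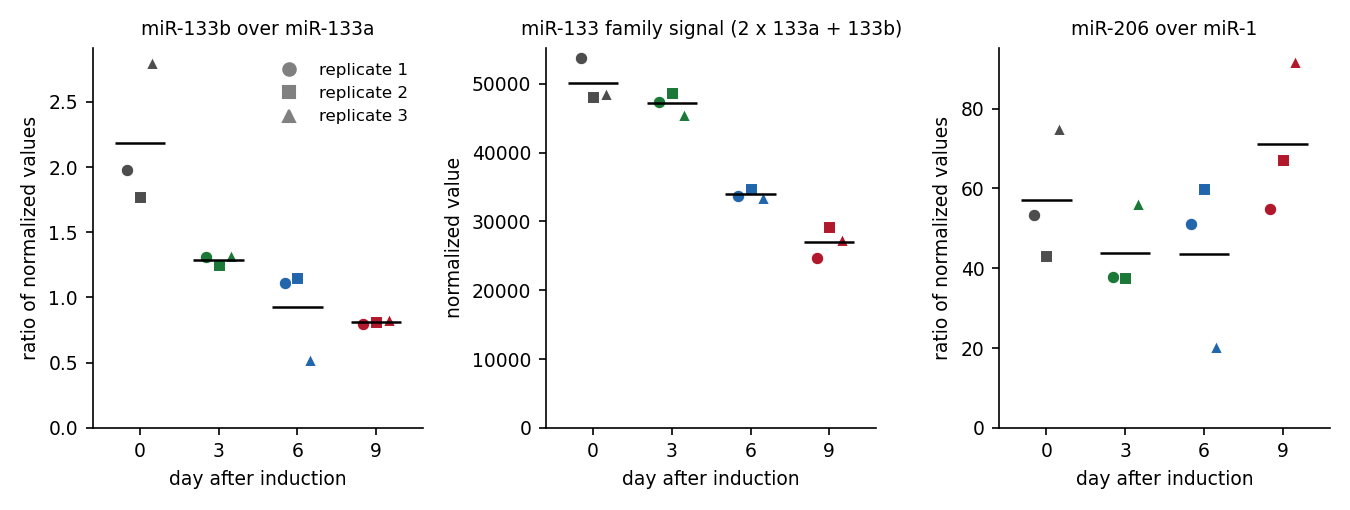
Ratio of miR-133b to miR-133a, summed signal of the miR-133 loci and ratio of miR-206 to miR-1 (vertical axes, from 0), with miR-133a and miR-1 given for 1 of their 2 loci in the ratios, by day after induction, with a point for each library, its shape giving the replicate, and a black line at the day's mean. The first ratio lies at 1.77 or more at 0 d and at 0.826 or less at 9 d, and 6 d replicate 3 is the lowest point in the first and last plots but not in the sum.

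The miRNAs whose log2 normalized values ran most like each member over the 12 libraries were sought among 349 other names with a mean of at least 100. They share library and depth with it, and the r is a description only. For miR-206 these were bta-miR-184 (Pearson r 0.970), PC-5p-806 (0.934) and bta-miR-2411-3p (0.928). For miR-133b they were PC-3p-1228 (0.985), ssc-mir-1285-p3 (0.938) and bta-mir-7857-1-p3 (0.932). Names with PC are candidates predicted by the authors' software. For miR-486 they were hsa-miR-365b-5p (0.978), bta-miR-378 (0.971) and mmu-miR-486b-5p (0.957). For miR-1 (efu-miR-9341, mmu-miR-486b-5p and bta-miR-3957) the r was 0.833 to 0.856, and for miR-133a (PC-3p-3741, chi-miR-342-5p and bta-miR-432) it was 0.825 to 0.877.

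In the mRNA libraries of the same days, genes were listed that house or overlap these miRNAs, or are known from earlier work as their regulators or targets. No link between an mRNA and a miRNA was tested. The mRNAs were tested with limma on log2 of FPKM plus 0.1, over 15401 mRNAs with a mean of at least 0.1 FPKM and with the same thresholds. Called higher and lower were 8.06% and 15.2% of these mRNAs at 3 d, 3.39% and 7.97% at 6 d, then 3.41% and 7.47% at 9 d, each against 0 d. At an unadjusted p under 0.05 in limma, 8818, 6644 and 6980 of the 15401 mRNAs passed in either direction. Counts of listed genes at that threshold are to be read beside these. Rescaling by median ratios moved the median mRNA by 0.14 at 6 d and 0.17 at 9 d. Of the 150 genes listed, 139 matched a row, and AGO3, ARHGAP5, DGCR8, MYH1, MYH2, PAX7, PLIN1, PPARG, PPP3CB, TFRC and TTN were not analysed here.

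Of the 5 genes listed as hosts (5 matched), 3 were tested. By limma, 0 of these were higher and 2 lower on each day, with 0, 0 and 1 higher at an unadjusted p under 0.05. ANK1, the host of miR-486, had 61.85, 66.85 and 68.75 FPKM at 0 d, 7.55, 20.7 and 9.95 at 3 d, 10.2, 14.4 and 21.9 at 6 d, then 10.9, 11.0 and 14.5 at 9 d. All later libraries lay below those of 0 d and the later days overlapped. Its log2 fold changes were -2.49, -2.15 and -2.44 (adjusted p 0.000199, 0.00106 and 0.000479), beside -1.32, -2.18 and -2.43 for miR-486. MYH7, the host of miR-208b and the slow myosin, was called lower at -4.47, -1.80 and -1.56 (adjusted p 1.28e-10, 1.83e-07 and 6.71e-07), with day means of 75.0, 3.31, 21.6 and 25.4 FPKM. MIB1, at a miR-1 and miR-133a pair, was not called (0.12, 0.78 and 1.00, adjusted p 0.820, 0.164 and 0.0743). Without 0 d replicate 3 it was called higher at 6 d (1.21, adjusted p 0.0243) and 9 d (1.43, adjusted p 0.0111), and at 9 d also without 3 d replicate 3 (adjusted p 0.0263) and after rescaling by median ratios (1.19, adjusted p 0.0449). MYH6 and MYH7B, with at most 0.16 and 0.08 FPKM, were under the filter.

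The regulators that drive myomiRs were called in 1 direction. Of 8 tested (9 of 10 matched), 0 were higher and 4, 3 and 3 were lower at 3 d, 6 d and 9 d by limma, with 0 higher at an unadjusted p under 0.05. MYOD1 had 239.8, 260.2 and 303 FPKM at 0 d, 107, 113 and 108 at 3 d, 51.9, 34.0 and 57.3 at 6 d, then 56.6, 43.2 and 63.8 at 9 d. Its 3 d libraries lay between those of 0 d and the later days, which overlapped. The log2 fold changes of MYOD1 were -1.29, -2.51 and -2.31 (adjusted p 0.000312, 6.04e-06 and 1.31e-05), and those of MYOG -1.37, -1.80 and -2.08 (adjusted p 8.87e-06, 3.00e-06 and 1.44e-06). MEF2A was called lower at 3 d (-1.28) and MYF5 at 9 d (-1.40). SRF at 3 d (-1.03) was no longer called without 0 d replicate 3 (-0.96) or 3 d replicate 1 (-0.95). MYF6 at 6 d (-1.11, adjusted p 0.0371) was no longer called without 0 d replicate 2 (adjusted p 0.0965) or 3 (0.125), 3 d replicate 3 (0.0510) or 6 d replicate 1 (0.0761) or 2 (0.124). Calls were gained by MYF6 at 9 d without 0 d replicate 1 (-1.13), MYF5 at 6 d without 6 d replicate 3 (-1.06), MEF2C at 3 d without 3 d replicate 2 (-1.80) and MEF2D at 3 d without 0 d replicate 3 (-2.42).

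Genes known as targets of the members moved in both directions. For miR-1 and miR-206, 16 were tested, with 4 higher and 6 lower at 3 d, 1 higher and 4 lower at 6 d, and 3 higher and 4 lower at 9 d. Their median log2 fold change was -0.34, -0.28 and -0.33, beside -0.06, -0.15 and -0.19 for all mRNAs tested. GJA1, the gap-junction gene of heart and myoblasts, was higher on all 3 days (1.04, 1.09 and 1.27), HDAC4, IGF1 and TWF1 were higher at 3 d (1.38, 2.90 and 1.70), and VEGFA and CCND1 at 9 d (1.28 and 1.16). NOTCH3 (-3.67, -1.36 and -1.53) and MET (-2.92, -1.87 and -1.51) were lower on all 3 days. TIMP3 was lower at 3 d (-5.55), with the calls at 6 d (-1.09) and 9 d (-1.26) lost without 0 d replicate 1 (adjusted p 0.0942 and 0.0544) or 3 (0.0876 and 0.0514), without 6 d replicate 2 at 6 d (-0.59) and without 9 d replicate 2 at 9 d (adjusted p 0.0579). CCND1 (-4.35), BDNF (-1.95) and SLC8A1 (-1.85) were lower at 3 d and IGF1 at 6 d (-2.04). UTRN was lower at 9 d (-1.01), not called without 0 d replicate 1 or 2 or 9 d replicate 2 (-0.98, -0.96 and -0.98), and called at 3 d without 0 d replicate 3 (-1.04).

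For miR-133, 17 targets were tested, with 1 higher and 7 lower at 3 d, and 0 higher and 1 lower on each later day by limma, at medians of -0.47, -0.26 and -0.35. At an unadjusted p under 0.05, 1 was higher and 9 were lower at 3 d, 1 higher and 8 lower at 6 d, and 2 higher and 9 lower at 9 d. Lower at 3 d were CTGF (-5.43), CDC42 (-1.97), PRDM16 (-1.89), COL1A1 (-1.68), RHOA (-1.53), TAGLN2 (-1.27) and SRF, and SNAI1 was higher (1.06). PRDM16, the brown-fat regulator, had day means of 2.30, 0.553, 0.897 and 1.14 FPKM and was the 1 gene called at 6 d (-1.26). UCP2 was lower at 9 d (-1.47). CDC42 was called at 6 d without 6 d replicate 2 (-1.10) and at 9 d without 9 d replicate 1 (-1.24), and PRDM16 at 9 d without 0 d replicate 3 (-1.03) or 9 d replicate 1 (adjusted p 0.00218).

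For miR-486, 5 targets were tested, with 1 higher and 0 lower at 3 d and 0 called at 6 d and 9 d by limma. At an unadjusted p under 0.05, 2 were higher and 1 lower at 3 d, 0 higher and 2 lower at 6 d, and 1 higher and 3 lower at 9 d. FOXO1 had 5.36, 5.34 and 5.07 FPKM at 0 d, 17.4, 17.0 and 17.8 at 3 d, 5.65, 5.39 and 5.66 at 6 d, then 3.70, 3.51 and 3.30 at 9 d. The 3 d libraries stood above all others. Its log2 fold change at 3 d was 1.71 (adjusted p 1.24e-08). For miR-208 and miR-499, 5 were tested, and 0 were higher while SOX6 was lower at 3 d (-1.26) and 6 d (-1.12), with 0 called at 9 d by limma. At an unadjusted p under 0.05, 0, 1 and 0 of them were higher and 2, 3 and 3 lower at 3 d, 6 d and 9 d. PPP3CA was called higher at 6 d without 6 d replicate 1 (1.26). Among the 7 genes of miRNA processing tested, 0 were called on any day by limma, and 2, 2 and 4 were lower and 0 higher at an unadjusted p under 0.05. Without 3 d replicate 3 AGO1 was called higher at 3 d (1.42), and without 0 d replicate 1 AGO4 lower (-1.19). AGO2, the most abundant of them, averaged 2201, 2009, 1499 and 1627 FPKM.

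Lists of marker genes for several cell types were summed in each library. The 23 skeletal-muscle genes matched of 27 summed to 2820, 3462 and 3189 FPKM at 0 d, 978, 1154 and 1119 at 3 d, 1092, 1027 and 1118 at 6 d, then 1096, 1019 and 1165 at 9 d. The 0 d libraries lay far above the later days, which overlapped, and 6 d replicate 3 (1118) did not stand out from its day. Of these genes 17, 18 and 19 were called lower and 0 higher at 3 d, 6 d and 9 d, with medians of -1.51, -1.73 and -1.60, and 0, 1 and 0 were higher at an unadjusted p under 0.05. The most abundant was the fusion gene MYMK. The largest changes were in CKM (-5.39, -3.36 and -2.32), TNNT1 at 3 d (-4.80), MB (-3.64, -2.69 and -1.32) and ACTN3 (-2.07, -2.98 and -2.52). Lower on all 3 days were also MYOD1, MYOG, ACTA1, MYH3, TNNI1, TNNC1, TNNC2, MYL1, MYLPF, ACTN2 and MYMK. NEB, ATP2A1 and RYR1 were lower at 6 d and 9 d, and DES at 3 d. With a pseudocount of 1 in place of 0.1, the calls of TNNC2 on all 3 days and of TNNI1 at 6 d and 9 d were lost, and with rescaling by median ratios that of MYL1 at 9 d (-0.97).

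Calls in 4 of these muscle genes depended on 1 library. TNNT3, lower at 6 d (-1.11) and 9 d (-1.05), was not called without 0 d replicate 2 (-0.89 and -0.82), 6 d replicate 3 (-0.92) or 9 d replicate 2 (-0.85). CASQ1, lower at 3 d (-2.54), lost its call at 9 d (-1.02) without 0 d replicate 1 or 2 or 9 d replicate 2 (-0.98, -0.98 and -0.83). MYMK at 3 d (-1.23) lost it without 0 d replicate 2 (-0.96). TNNT1 gained one at 6 d (-1.68) and 9 d (-1.33) without 3 d replicate 2.

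Of the cardiac markers few were above the filter. All 9 matched, NPPA, NPPB, MYL7 and NKX2-5 were listed at 0, and TNNT2, the 1 tested, made up most of the sums, which were 9.59, 9.83 and 9.72 FPKM at 0 d, 2.04, 2.63 and 2.94 at 3 d, 2.55, 2.45 and 2.75 at 6 d, then 1.39, 1.12 and 1.57 at 9 d. The 0 d libraries were the highest. TNNT2 was lower on all 3 days (-1.91, -1.89 and -2.80). The smooth-muscle list (8 of 8 matched, 7 tested, ACTA2 the most abundant) summed to 2336, 2391 and 2558 FPKM at 0 d, 284, 327 and 320.2 at 3 d, 2501, 2674 and 2661 at 6 d, then 1119, 1040.5 and 1152 at 9 d. The 3 d libraries were the lowest and 0 d overlapped with 6 d. At 3 d 5 of its genes were lower (ACTA2 -5.98, LMOD1 -4.83, TAGLN -3.41, CNN1 -3.41 and DES -1.51). At 6 d 3 were higher (CNN1 4.01-fold, SMTN on the log2 scale by 1.34 and TAGLN by 1.00), TAGLN not without 0 d replicate 1 or 2 or 6 d replicate 2 or 3 (0.98, 0.96, 0.99 and 0.99), and at 9 d ACTA2 (-1.51) and LMOD1 (-1.11) were lower. MYH11 was called higher at 3 d without 9 d replicate 2 (adjusted p 0.000289). At an unadjusted p under 0.05, 0 genes of this list were higher and 5 lower at 3 d, 3 higher and 1 lower at 6 d, and 1 higher and 4 lower at 9 d.

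The adipocyte list (8 of 10 matched, FABP4 the most abundant) summed to 10.61, 10.57 and 11.4 FPKM at 0 d, 112, 101 and 108 at 3 d, 41.9, 42.1 and 40.9 at 6 d, then 49.15, 40.8 and 49.13 at 9 d. Every later library lay above those of 0 d. The sum at 3 d was mostly FABP4, with day means of 3.30, 91.1, 26.4 and 9.07 FPKM. Day means of LPL, ADIPOQ and CEBPA were also highest at 3 d, and those of LEP, CD36, PLIN4 and CIDEC at 9 d. Of the 8 genes of this list tested, 5 were higher and 1 lower at 3 d, and 6 higher and 0 lower at 6 d and 9 d, with 1 lower on each of those days at an unadjusted p under 0.05. The largest changes were in FABP4 (4.75, 2.96 and 1.42), CD36 (3.11, 2.18 and 4.33), LEP (-4.06, 1.69 and 3.06) and ADIPOQ (2.68, 2.22 and 2.34). PLIN4 was also higher on all 3 days, CIDEC at 6 d and 9 d and LPL at 3 d. ADIPOQ, at no more than 1.64 FPKM, lost its call at 6 d without any 1 library of 0 d or 6 d replicate 1 (adjusted p 0.0567 to 0.0710) and at 9 d without 0 d replicate 1 or 9 d replicate 1 or 2 (0.0565 to 0.0706). The fibroblast and preadipocyte list (8 of 8 matched, 7 tested) had COL3A1 as the most abundant and summed to 127085, 123312 and 130607 FPKM at 0 d, 170597, 177097 and 178790 at 3 d, 145174, 140649 and 141656 at 6 d, then 234427, 221818 and 235373 at 9 d. The 0 d libraries were the lowest. It had 4 higher and 2 lower at 3 d, 3 higher and 1 lower at 6 d, and 2 higher and 1 lower at 9 d. These were DCN (2.09, 1.66 and 2.16), LUM (1.56, 1.69 and 1.67), PDGFRA at 3 d (2.54) and THY1 at 3 d and 6 d (1.85 and 1.47) higher and CD34 (-1.85, -2.60 and -2.39) and COL1A2 at 3 d (-1.18) lower. The part of changing proportions of these cells in the miRNA values was not tested.

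The lists of blood and vessel cells had few genes tested. In the blood and immune list (4 tested) 3, 1 and 2 were higher and 0 lower, with CD14 at 3 d and 9 d (1.71 and 1.59), CSF1R at 3 d (1.23) and CD79A on all 3 days (3.34, 2.91 and 2.52). CSF1R was not called without 0 d replicate 3 (1.00, adjusted p 0.00373). CD79A, with at most 3.63 FPKM, lost its call at 6 d without 0 d replicate 2 (adjusted p 0.0900) or 3 (0.0872) or 6 d replicate 2 (0.0646) or 3 (0.0924). Its call at 9 d was lost without 0 d replicate 2 (adjusted p 0.142) or 3 (0.137), 6 d replicate 2 (0.0595) or any 1 library of 3 d (0.0574 to 0.0589) or 9 d (0.0551 to 0.128), and also with the replicate number as a block (0.0691), with no filter (0.0602) and with pseudocount 1 (0.127). In the erythroid list HBA1, the 1 gene tested, was higher at 6 d (3.52, adjusted p 0.0392), a call lost without 0 d replicate 1 or 2 or any 1 library of 6 d or 9 d (adjusted p 0.0543 to 0.122), and made at 3 d without 3 d replicate 1 (3.66). In the endothelial list (3 tested) 0 were called at 3 d and 9 d and CLDN5 was lower at 6 d (-1.30), and at an unadjusted p under 0.05 1 was higher and 1 lower at 3 d and 2 were lower at 9 d. TEK was called higher at 3 d without 0 d replicate 2 (1.02).

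**Figure D5:**
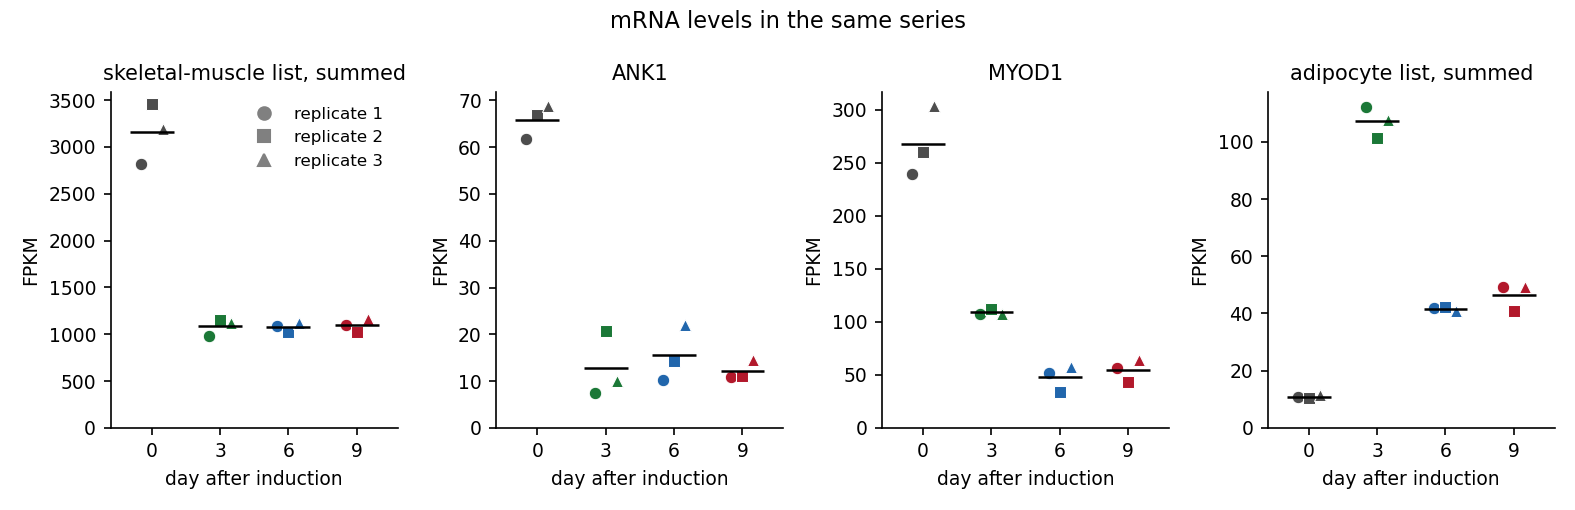
FPKM of the skeletal-muscle list (sum of 23 genes), of ANK1 and MYOD1, and of the adipocyte list (sum of 8 genes), by day after induction, with a point for each library, its shape giving the replicate, and a black line at the day's mean. The muscle list, ANK1 and MYOD1 were highest at 0 d in every library. The adipocyte sum was lowest at 0 d and highest at 3 d, where FABP4 made up most of it.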

How the data were processed

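Small RNAs and mRNAs were measured in 3 libraries for each of 4 days, and libraries were grouped by the day and replicate in their labels. The members and gene lists were chosen with earlier results of these data known. The deposited raw miRNA values are estimated counts (expected counts), since the authors split reads shared between loci (ACGT101-miR, miRBase). The deposited normalized miRNA values are a signal, the raw value times 1 factor per library. The deposited mRNA values are FPKM, made by the authors with HISAT2 and StringTie. The other 2 of 4 tables (lncRNA, circRNA) were not used, as they hold no member.

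Raw values were rounded and tested with edgeR 4.0.16 (TMM, estimateDisp, glmQLFit, glmQLFTest) for names with at least 10 reads over the 12 libraries, and mRNAs with limma 3.58.1 (eBayes with trend) on log2(FPKM + 0.1) for a mean of at least 0.1 FPKM. Each fit held all 12 libraries and a mean per day, and Benjamini–Hochberg adjustment ran over the whole table within a comparison. Standard errors of edgeR are the log2 fold change divided by the square root of F. Of the 23 alternatives for miRNAs and 18 for mRNAs, those that summed loci and joined identical sequences, or left out 0 d and 6 d replicate 3 together, were chosen after seeing the data. Named genes are all called genes of each list, with values for those of largest change. R 4.3.3, DESeq2 1.42.0, Python 3.11.15, NumPy 2.4.6, pandas 2.3.3 and Matplotlib 3.10.9 were used.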

Additional observations from a re-analysis of the deposited data

How the results depend on the processing

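With 15 members, counts are small and 1 member can change them. Against main counts of 1, 3, 5, 1 and 0 members called (3 d, 6 d and 9 d against 0 d, 6 d against 3 d, 9 d against 6 d), fitting only the 6 libraries compared gave 1 at 6 d (miR-133b and miR-206 lost) and 3 at 9 d (miR-206 and hsa-miR-486-5p_R+2 lost) against 0 d. At 6 d against 3 d the count was 0 with the authors' factors, with at least 120 reads, with bta names only and with limma on normalized values, and 3 with 0 d and 6 d replicate 3 left out, which was chosen after seeing the data. Leaving out 1 library gave 0 to 1, 2 to 4, 2 to 5, 0 to 2 and 0 to 1 members. At 3 d it was 0 without any 1 of the 3 d libraries, at 9 d it was 3 without 9 d replicate 1 and 2 without 9 d replicate 2, and at 9 d against 6 d it was 1 without 9 d replicate 1. The cause was not tested. Listed mRNAs called numbered 60, 45 and 44, and 60 to 61, 40 to 47 and 38 to 45 with 1 library left out. They numbered 51, 35 and 34 with pseudocount 1 and 52, 38 and 38 at a mean of at least 1 FPKM. Among genes tested in the main fit, with pseudocount 1, calls were lost by ADIPOQ, CD34, PLIN4 and TNNC2 on all 3 days, by BDNF, CASQ1, CSF1R, SNAI1 and SRF at 3 d, by CIDEC, CLDN5, MYF6, PRDM16, SOX6, TNNI1 and TNNT3 at 6 d, and by CASQ1, CD14, CD79A, CIDEC, LMOD1, TNNI1 and TNNT3 at 9 d, while TNNT1 gained one at 6 d and 9 d. With pseudocount 0.01, HBA1 and LEP lost a call at 6 d, and AGO4 and CEBPA gained one at 3 d, SNAI1 at 6 d and DOCK3 and PRDM16 at 9 d. With rescaling by median ratios, calls were lost by SRF at 3 d, by MYF6, SOX6, TIMP3 and TNNT3 at 6 d, and by CASQ1, LMOD1, MYL1, TNNT3 and UTRN at 9 d, and gained by SNAI1 at 6 d and by DOCK3 and MIB1 at 9 d. MYOCD, below the main filter, was called higher at 6 d and 9 d with this rescaling, with no filter and without any 1 library of 0 d or 3 d, and MYH6, also below it, lower at 3 d with no filter. With no filter, HBA1 and MYF6 lost a call at 6 d and CD79A at 9 d. With the replicate number as a block, the members called numbered 1, 3, 5, 1 and 0 and the listed mRNAs 60, 45 and 43, the gene lost at 9 d being CD79A. Of 18 pairs of libraries with the same number on different days, 8 in miRNAs (median r 0.073) and 0 in mRNAs correlated above 0.1 after subtracting day means. No result changed sign with a call. Of the described members' fold changes, 34 refits lost a call, 12 gained one and 964 kept the main outcome. The depth, 1.44 to 4.67 M reads a library, limits the 6 members with fewer than 100 reads in all.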

Other observations

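Each day has 3 libraries named biological replicates, from a single batch of cells by the paper and without a statement of separate animals or cultures, and 2 small-RNA libraries stood apart from those of their day. The miRNA values are bulk signals, so that changes within a cell and changes in the mix of cells cannot be told apart. Reads shared by the miR-133a and miR-133b loci were split by the authors, and their raw reads were not re-aligned here. The mRNA table holds FPKM without counts. Target genes were listed from earlier work on other systems, mostly not bovine, and no binding was measured.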
